A study of Homo sapiens with 6 samples.

Results

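The genes described here carry names that end in -AS and a digit, the naming style for noncoding RNA transcribed from the strand opposite another gene. Of 60675 gene identifiers in the deposited table, 1172 had such a name, and 634 of these had at least 1 count. The members were chosen by their counts: the 100 with the highest sum over all 6 libraries were kept, so their high level is how they were chosen and not a finding. The last gene inside this limit, TMEM9B-AS1, had 227 summed counts and the first gene outside it, A1BG-AS1, had 221. Each was paired with the gene named before -AS, called its partner below, and 98 of the 100 had a partner of that exact name in the table (all except RPARP-AS1 and TRG-AS1).

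The libraries hold RNA pulled down with the J2 antibody, which recognises double-stranded RNA, from OCI-AML2, a human acute myeloid leukaemia cell line. In 3 libraries the cells had been transduced with short hairpin RNA against SUPV3L1 (also called SUV3), an RNA helicase of mitochondria, and in 3 with short hairpin RNA against PNPT1 (also called PNPase), the ribonuclease that works with it. The library titles each carry a different number whose meaning is not stated, so whether a group shares 1 construct is unknown. Each group is described by its submitters as 3 biological replicates, and neither an untreated control nor an input library was analysed here. A level in these libraries therefore combines how much of an RNA the cells held with how well the antibody recovered it, and in bulk samples fewer cells of a type and less RNA per cell cannot be told apart.

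An antisense RNA can base-pair with a sense transcript where their exons lie on opposite strands of the same DNA, and such duplexes are one source of double-stranded RNA outside mitochondria. Pairing needs both strands to be transcribed in the same cell, and genes of this kind often share a promoter region with their partner, from which the strands are read in opposite directions. Some antisense-named genes also act without any link to the partner, as host genes of small nucleolar RNAs or as RNA sponges in the cytoplasm.

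The annotation sorted the pairs by layout. In GENCODE 29 on GRCh38, 99 of the 100 genes had an entry (HNRNPU-AS1 had none); 60 were typed as antisense, 18 as processed transcripts, 13 as lincRNA, 3 as protein coding (MMP24-AS1, NCBP2-AS2 and TOPORS-AS1) and 5 as transcribed pseudogenes. Of 97 pairs with both positions, 33 overlapped at their 5′ ends (head-to-head), 26 overlapped at their 3′ ends (tail-to-tail), and 20 had divergent starts within 1000 bases without overlap. In 11 pairs the partner lay inside the antisense gene, in 6 the antisense gene lay inside the partner, and 1 pair was apart. Annotated exons of the antisense gene and its partner, merged over all transcripts of each gene, overlapped in 68 of the 97 pairs, while 29 pairs shared no exonic base. Such exons could in principle pair in mature RNA where a transcript of each gene holds the shared bases. Some overlaps were short, with 3 bases for CARD8-AS1 and 26 for TPT1-AS1, and which transcripts were present was not tested.

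The following windows show where such complementarity begins or ends in 6 pairs. They are examples from the 4 longest exon overlaps and the 12 most counted genes. Not all of these are printed, and LRRC75A-AS1 and SBF2-AS1 are among those left out. Each antisense line is 30 bases of the annotated RNA, 5′ to 3′, read from GENCODE 29 transcripts on GRCh38. Capitals mark the 15 bases that are also exonic in the partner on the other strand, and the partner line gives those bases as the partner's own RNA carries them.
OIP5-AS1, chr15:41309253-41309282, plus strand: actgaaaaagacaaaTTGTATATTATTCAG
OIP5, chr15:41309268-41309282, minus strand: CTGAATAATATACAA
TTN-AS1, chr2:178529205-178529234, plus strand: CAGTATCTTTTATAGctaaaaaagaaacct
TTN, chr2:178529205-178529219, minus strand: CTATAAAAGATACTG
GABPB1-AS1, chr15:50354970-50354999, plus strand: cagacccgcactgacCTGGAAAAGCTTCGG
GABPB1, chr15:50354985-50354999, minus strand: CCGAAGCTTTTCCAG
CCDC18-AS1, chr1:93264686-93264715, minus strand: TTGATGTGAAATCATctatatagccccaga
CCDC18, chr1:93264701-93264715, plus strand: ATGATTTCACATCAA
SH3BP5-AS1, chr3:15254838-15254867, plus strand: acagaaaggagaaacTTTTCTCAAGCCGTT
SH3BP5, chr3:15254853-15254867, minus strand: AACGGCTTGAGAAAA
EPB41L4A-AS1, chr5:112162603-112162632, plus strand: gaaacgacaaataatGTATAGAGGTATTCA
EPB41L4A, chr5:112162618-112162632, minus strand: TGAATACCTCTATAC
The windows in TTN and CCDC18 fall in coding exons and the others do not. Separately, a 30-base window at the middle of the longest shared block was read from both transcripts in 64 pairs. All 64 were exact reverse complements. This checks only how the sequences were read, since shared coordinates on opposite strands fix the outcome. TTN-AS1 shared 11381 exonic bases with TTN, the longest overlap, followed by SH3BP5-AS1 with 1975, EPB41L4A-AS1 with 1659 and SBF2-AS1 with 1495.

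The libraries held 5852090 to 11361371 counts assigned to genes, the fewest in PNPT1 knockdown replicate 3, which also detected the fewest genes (16620, against 20765 to 22393 in the others) and had the highest share of reads not placed uniquely (80.1%, against 65.7% to 71.6%). SUPV3L1 had 12.2, 12.3 and 9.42 CPM (counts scaled to library size, with the TMM method) in the SUPV3L1 knockdown libraries, against 11.5, 18.2 and 25.8 in the PNPT1 knockdown libraries. PNPT1 had 36.3, 27.6 and 21.4 CPM in the SUPV3L1 knockdown libraries, against 7.66, 18.9 and 17.1 in the PNPT1 knockdown libraries. Each targeted gene averaged lower in its own knockdown, without passing the test over all genes (adjusted p = 0.898 for both, edgeR quasi-likelihood test). The summed level of 9 myeloid markers, 1 of them at 0, was 813 to 1810 CPM in SUPV3L1 knockdown and 423 to 495 CPM in PNPT1 knockdown. That gap came from LYZ (lysozyme): without it the sum was 300, 469 and 477 CPM in SUPV3L1 knockdown, against 458, 306 and 279 CPM in PNPT1 knockdown, and the groups overlapped. Among the myeloid markers, CD34 had no count, KIT stayed at or below 0.498 CPM and MPO at or below 7.07 CPM. Erythroid and epithelial markers had no count, and the summed T-cell, B-cell and fibroblast markers stayed at or below 0.896 CPM in every library. Counting kept the strands apart: of 649 genes whose every exonic base was also exonic on the opposite strand, 265 (40.8%) had counts, against 20 of 664 (3.01%) where the covering exons lay on the same strand.

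LRRC75A-AS1, a host gene of small nucleolar RNAs also known as SNHG29, had the most counts. It held 64289 of 156238 member counts (41.1%). Its level was 1130, 1170 and 1020 CPM in SUPV3L1 knockdown, against 1240, 783 and 1860 CPM in PNPT1 knockdown, and the groups overlapped. Its partner LRRC75A had 24 counts over all 6 libraries, so nearly all reads of the pair lay on the antisense strand. Reads of the small nucleolar RNAs inside it may be counted with the host; their part was not tested.

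OIP5-AS1, a long noncoding RNA also known as cyrano that binds microRNA miR-7, came second. It had 181, 155 and 190 CPM in SUPV3L1 knockdown, against 245, 229 and 145 CPM in PNPT1 knockdown. OIP5, which encodes a subunit of the complex that licenses centromeres, had 3.78, 4.81 and 1.73 CPM in SUPV3L1 knockdown, against 3.68, 4.19 and 1.54 CPM in PNPT1 knockdown. The antisense strand thus held 97.0% to 99.1% of the pair's counts in the SUPV3L1 knockdown libraries and 98.2% to 98.9% in the PNPT1 knockdown libraries. Neither gene separated the groups.

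The other most counted genes with few partner reads showed the same one-sided strand balance. TTN-AS1, antisense to the muscle protein titin, had 3232 counts against 161 for TTN. NUTM2B-AS1 had 2171 counts and NUTM2B had 3. FGD5-AS1 had 1766 counts and FGD5, an exchange factor for a small GTPase, had none in any library. CD27 (a lymphocyte receptor) and CKMT2 (a muscle-type mitochondrial creatine kinase) also had no counts beside CD27-AS1 and CKMT2-AS1. In all, 18 of 98 partners had under 100 summed counts.

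A second group of pairs had a sizeable share of their counts on each strand, without correction for gene length. In 32 of 98 pairs the antisense share of the summed counts lay between 25% and 75%, and in 21 of these 32 the exons overlapped. GABPB1, a subunit of an ETS-family transcription factor complex, is one partner of this kind. GABPB1-AS1 had 44.2, 53.9 and 68.8 CPM in SUPV3L1 knockdown, against 59.4, 62.9 and 10.7 CPM in PNPT1 knockdown. GABPB1 had 24.1, 29.9 and 24.9 CPM in SUPV3L1 knockdown, against 22.7, 30.6 and 45.3 CPM in PNPT1 knockdown. Replicate 3 of the PNPT1 knockdown was the lowest library for the antisense gene. It was the highest for the partner with TMM scaling only, since GABPB1 was highest in PNPT1 knockdown replicate 2 in CPM without TMM factors (33.4, against 30.2 in replicate 3) and in FPKM (2.31, against 1.73).

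TMEM161B-AS1 had 42.5, 34.0 and 40.3 CPM in SUPV3L1 knockdown, against 41.7, 30.7 and 18.2 CPM in PNPT1 knockdown. TMEM161B, a membrane protein gene, had 31.0, 27.2 and 26.4 CPM in SUPV3L1 knockdown, against 29.8, 24.7 and 31.7 CPM in PNPT1 knockdown. Both strands stayed within a narrow range outside PNPT1 knockdown replicate 3. PSMA3-AS1 (2215 counts, against 1399 for the proteasome subunit gene PSMA3), CCDC18-AS1 (1916, against 2314 for CCDC18), and ZNRD1-AS1 (1948, against 675 for ZNRD1, an RNA polymerase I subunit gene) were further examples. THAP9-AS1, beside a gene derived from a transposase, had 1633 counts against 380 for THAP9, an antisense share of 81.1% and so outside this group.

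In the third group the partner messenger RNA dominated, and the antisense share was under 10% in 16 of 98 pairs. HNRNPU-AS1 was the third most counted antisense gene, with 8521 counts, yet HNRNPU, which encodes a nuclear RNA-binding protein, had 37632. The antisense share of this pair was 18.5%, above the 10% limit. The lowest antisense shares among the named genes were 1.61% for VIM-AS1 (partner vimentin), 2.02% for TPT1-AS1 (translationally controlled tumour protein) and 2.68% for KTN1-AS1 (kinectin). Antisense counts exceeded partner counts in 36 of 98 pairs. Per length, in the deposited FPKM (fragments scaled to gene length and library size), the antisense gene had the higher mean level in 38 of 98 pairs in SUPV3L1 knockdown and 39 in PNPT1 knockdown. The FPKM table does not match the counts gene by gene, since CD27, without a count, averaged 0.0977 FPKM in SUPV3L1 knockdown and 0.0613 FPKM in PNPT1 knockdown.

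**Figure D1:**
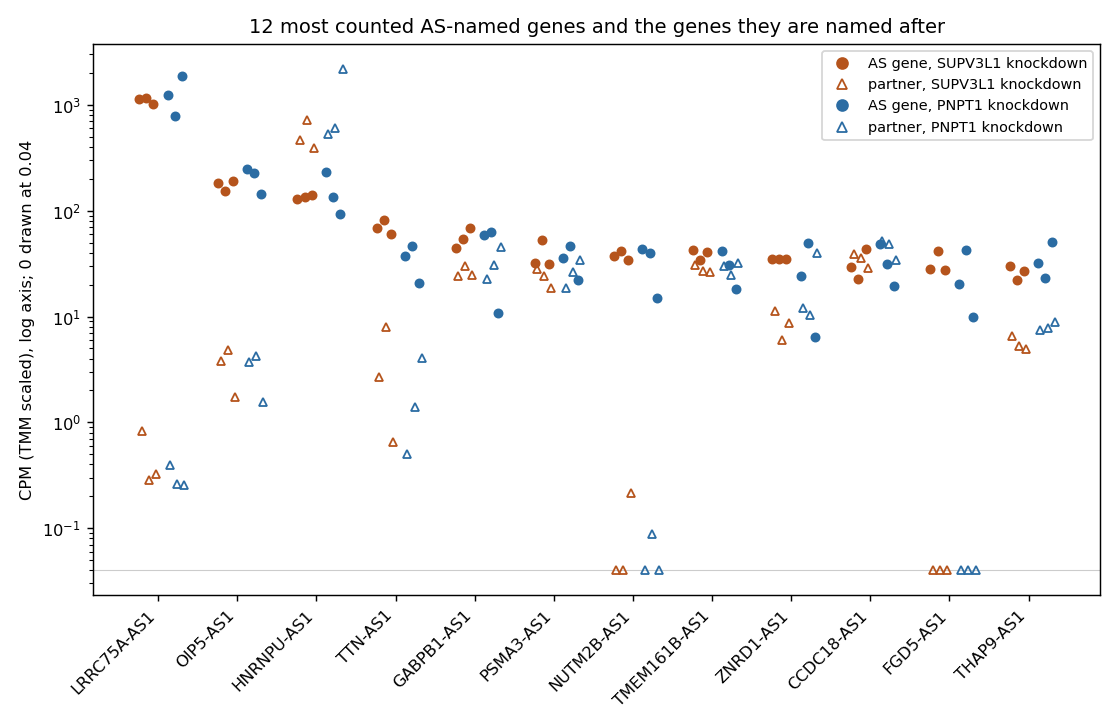
Level of the 12 most counted AS-named genes (filled circles) and of their partners (open triangles) in each library, in CPM on a log axis; SUPV3L1 knockdown is left of PNPT1 knockdown, replicates 1 to 3 run left to right, and 0 is drawn at 0.04. The partners of LRRC75A-AS1, NUTM2B-AS1 and FGD5-AS1 stay below 1 CPM in every library, and the groups of TTN-AS1 do not overlap.

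The strand balance was also summarised by layout. The median antisense share of the summed counts was 21.7% in the 33 head-to-head pairs, 22.7% in the 20 divergent pairs, 64.8% in the 26 tail-to-tail pairs, and 95.8% in the 11 pairs whose partner lay inside the antisense gene. It was 39.5% in the 6 pairs whose antisense gene lay inside the partner. These medians describe genes kept for their counts. Pairs with overlapping exons had a median share of 34.7% and pairs without had 27.8%.

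Shared start regions were read from the RefSeq promoter table (GRCh38.p14; 250 bases before to 50 after the partner's start), which matched 61 antisense genes and 79 partners. In 18 partner windows the antisense gene also started inside the window. The pairs below have this layout and a different strand balance: the antisense share of summed counts was 56.4% for TMEM161B-AS1 and 2.02% for TPT1-AS1. Each window is printed on the partner's strand, and capitals mark CCGGAAG or its reverse complement CTTCCGG, the core read by ETS-family factors.
TMEM161B promoter, chr5:88268796-88269095, minus strand, antisense start at base 201: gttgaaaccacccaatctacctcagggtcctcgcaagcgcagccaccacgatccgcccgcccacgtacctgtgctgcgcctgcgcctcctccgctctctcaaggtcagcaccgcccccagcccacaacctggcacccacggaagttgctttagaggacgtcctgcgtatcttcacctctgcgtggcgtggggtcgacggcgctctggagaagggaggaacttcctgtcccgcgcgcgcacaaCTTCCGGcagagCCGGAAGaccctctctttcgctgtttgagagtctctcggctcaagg
TPT1 promoter, chr13:45341134-45341433, minus strand, antisense start at base 89: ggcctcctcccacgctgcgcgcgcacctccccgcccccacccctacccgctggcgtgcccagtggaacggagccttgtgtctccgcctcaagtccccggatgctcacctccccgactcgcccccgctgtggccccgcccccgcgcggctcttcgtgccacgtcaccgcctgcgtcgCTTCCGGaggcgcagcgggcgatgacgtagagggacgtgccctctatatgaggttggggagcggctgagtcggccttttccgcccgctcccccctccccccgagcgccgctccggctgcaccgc
Searched on both strands, CCGGAAG was present in 11 of 61 antisense promoters (18.0%) and 17 of 79 partner promoters (21.5%), against 10.7% of all 27305 promoter windows of the same length. TATAAA was in 4.92% of the antisense windows and 7.59% of the partner windows, against 11.9% of all windows. CCAAT was in 37.7% of the antisense windows and 32.9% of the partner windows, against 35.7% of all windows. The median GC content was 62.7% in antisense promoters and 66.0% in partner promoters, against 58.3% in all windows, and the motif shares were not adjusted for it.

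The next question was whether the antisense genes differed between the SUPV3L1 and PNPT1 knockdowns. None of the 100 passed an adjusted p of 0.05 in the edgeR quasi-likelihood test, the smallest adjusted p being 0.898, and 2 had an unadjusted p under 0.05. None of the 13275 genes tested passed either (0%), and 543 of them (4.09%) had an unadjusted p under 0.05. DESeq2 called 18 of the 13275 genes (0.136%), none of them a member. Without the filter on low counts, edgeR called 187 of 28015 genes (0.667%), again none of them a member. Of the 98 partners, 80 passed the filter on low counts, none was called, and 3 had an unadjusted p under 0.05.

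The antisense genes nevertheless leaned to one side. The log2 fold change of SUPV3L1 knockdown over PNPT1 knockdown was above 0 for 72 of 100, against 50.7% of all genes tested, with a median of 0.25 (range -1.23 to 1.41), against 0.01 for all genes. The 80 partners tested had a median of -0.13, with 36 above 0. Other noncoding genes had like values: the median was 0.25 for 129 less counted AS-named genes that could be tested, and 0.26 for 97 of the 100 most counted LINC-named genes. The lean of the antisense genes rested on a single library. Without PNPT1 knockdown replicate 3 the median was 0.0068 for the antisense genes, with 50 of 100 above 0, and -0.01 for the partners. The LINC-named genes kept part of their lean, with a median of 0.13 without that library, against 0.0089 for all genes.

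PNPT1 knockdown replicate 3 had less of most of these antisense RNAs. The median over the 100 was 10.5, 12.2 and 9.96 CPM in SUPV3L1 knockdown, against 8.86, 12.5 and 5.37 CPM in PNPT1 knockdown. Over the 80 partners tested it was 26.9, 26.6 and 26.1 CPM in SUPV3L1 knockdown, against 28.1, 26.2 and 28.8 CPM in PNPT1 knockdown. The order of the partners depended on the scaling: without TMM factors, an alternative added after the values were seen, their median was 28.8, 28.2 and 25.7 CPM in SUPV3L1 knockdown, against 33.8, 28.7 and 19.2 CPM in PNPT1 knockdown. The antisense genes were lowest in PNPT1 knockdown replicate 3 either way, with medians without TMM factors of 11.2, 12.9 and 9.81 CPM in SUPV3L1 knockdown, against 10.7, 13.7 and 3.59 CPM in PNPT1 knockdown. The median of all genes tested was then also lowest in that library (8.54 CPM, against 14.1 to 16.4 CPM in the others). This library was the lowest of all 6 for 73 of 100 antisense genes, against 36.4% of all genes, and the lowest of its group for 77 of 100, against 43.8%. Without TMM factors it was the lowest of all 6 for 83 of 100, against 59.1% of all genes, and in FPKM for 81 of 100, against 62.2%. With TMM factors it was the lowest of its group for 23 of the 80 partners. The 100 most counted LINC-named genes had medians of 3.54, 3.25 and 4.39 CPM in SUPV3L1 knockdown, against 3.78, 4.10 and 1.41 CPM in PNPT1 knockdown. Its low depth, its TMM factor of 0.669 (0.988 to 1.21 in the others) and its share of reads not placed uniquely move with this pattern, and their part in it was not tested.

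LRRC75A-AS1 did not follow the other antisense genes in that library. The 100 genes together held 0.284%, 0.297% and 0.266% of assigned counts in SUPV3L1 knockdown, against 0.350%, 0.279% and 0.185% in PNPT1 knockdown. Wilson 95% intervals, which cover counting error only, were narrow (0.182% to 0.189% for PNPT1 knockdown replicate 3). The mean share was 0.282% ± 0.0155 in SUPV3L1 knockdown, against 0.272% ± 0.0825 in PNPT1 knockdown (SD over 3 libraries each), and an exact two-sided permutation test gave p = 0.8 (adjusted p = 0.8 over 3 share measures; 3 against 3 libraries cannot go below 0.1). Without LRRC75A-AS1, a comparison added after the values were seen, the share was 0.163%, 0.173% and 0.166% in SUPV3L1 knockdown, against 0.201%, 0.194% and 0.0614% in PNPT1 knockdown. LRRC75A-AS1 alone made up 42.7%, 41.7% and 37.6% of member counts in SUPV3L1 knockdown, against 42.7%, 30.7% and 66.9% in PNPT1 knockdown.

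The strand balance within pairs, a ratio within a library that no scaling factor changes, set the same library apart. Pooled over pairs, the antisense share was 32.0%, 33.4% and 38.0% in SUPV3L1 knockdown, against 33.5%, 33.2% and 21.9% in PNPT1 knockdown (exact permutation p = 0.5, adjusted p = 0.8). The median over pairs was 31.7%, 30.6% and 30.9% in SUPV3L1 knockdown, against 27.9%, 35.5% and 17.1% in PNPT1 knockdown (exact permutation p = 0.7, adjusted p = 0.8). The SUPV3L1 knockdown libraries lay within a narrow band (SD 0.591 percentage points) and the PNPT1 knockdown libraries did not (SD 9.26). Among 80 pairs whose partner had at least 100 counts, a limit set after the values were seen, PNPT1 knockdown replicate 3 had the lowest antisense share in 49 and the highest in 7. The mean share was higher in SUPV3L1 knockdown in 62 of these 80 pairs, and in 40 of 80 without that library.

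**Figure D2:**
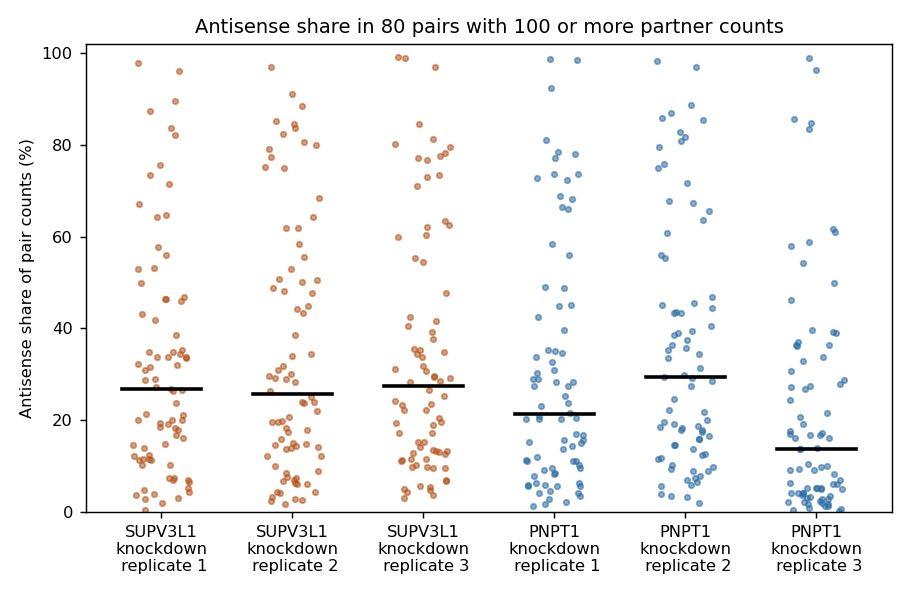
Antisense share of the counts of each pair, in percent, in the 6 libraries, for the 80 pairs with 100 or more partner counts; points are pairs and bars are medians. The medians are 26.7%, 25.7% and 27.4% in SUPV3L1 knockdown, against 21.3%, 29.4% and 13.8% in PNPT1 knockdown, with PNPT1 knockdown replicate 3 lowest.

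Single pairs show the size of the shift. The antisense share of ZNRD1-AS1 was 75.7%, 85.2% and 80.2% in SUPV3L1 knockdown, against 66.5%, 82.8% and 13.8% in PNPT1 knockdown. For GABPB1-AS1 it was 64.7%, 64.3% and 73.4% in SUPV3L1 knockdown, against 72.4%, 67.3% and 19.2% in PNPT1 knockdown. In both, 5 libraries lay together and PNPT1 knockdown replicate 3 lay far below them. HNRNPU-AS1 had 128, 135 and 141 CPM in SUPV3L1 knockdown, against 230, 136 and 93.2 CPM in PNPT1 knockdown. HNRNPU had 470, 714 and 390 CPM in SUPV3L1 knockdown, against 527, 605 and 2180 CPM in PNPT1 knockdown. TPT1-AS1 had 17.3, 17.0 and 28.3 CPM in SUPV3L1 knockdown, against 23.3, 28.0 and 7.93 CPM in PNPT1 knockdown. TPT1 had 896, 1020 and 747 CPM in SUPV3L1 knockdown, against 1080, 792 and 2930 CPM in PNPT1 knockdown. In these 4 pairs the antisense gene was lowest in that library, and HNRNPU, ZNRD1 and TPT1 were highest there with or without TMM factors and in FPKM, while GABPB1 was highest there with TMM factors only. Not every pair moved so: THAP9-AS1 had 30.1, 22 and 27.1 CPM in SUPV3L1 knockdown, against 32.1, 23.1 and 50.2 CPM in PNPT1 knockdown, highest in that library with TMM factors but not without them (33.5, against 38.7 in PNPT1 knockdown replicate 1). EPB41L4A-AS1, another host of a small nucleolar RNA, had 13.6, 16.4 and 19.8 CPM in SUPV3L1 knockdown, against 16.9, 17.4 and 36.6 CPM in PNPT1 knockdown, likewise highest there.

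TTN-AS1 was the most counted of the antisense genes whose groups did not overlap. It had 67.9, 82.1 and 60.0 CPM in SUPV3L1 knockdown, against 37.2, 45.9 and 20.7 CPM in PNPT1 knockdown. Every SUPV3L1 knockdown library lay above every PNPT1 knockdown library, with a log2 fold change of 1.01 (SE 0.35, adjusted p = 0.898, edgeR quasi-likelihood test) and values of 0.75 to 1.25 when single libraries were left out. TTN had 2.71, 8.02 and 0.650 CPM in SUPV3L1 knockdown, against 0.498, 1.40 and 4.09 CPM in PNPT1 knockdown, which overlapped. MFI2-AS1, beside the melanotransferrin gene, went the other way, with 3.78, 3.87 and 4.11 CPM in SUPV3L1 knockdown, against 8.46, 8.56 and 10.7 CPM in PNPT1 knockdown. Its log2 fold change was -1.23 (SE 0.42, adjusted p = 0.898, edgeR quasi-likelihood test), between -1.30 and -1.12 when single libraries were left out, so this value did not rest on PNPT1 knockdown replicate 3. MFI2 had 7.40, 4.06 and 10.4 CPM in SUPV3L1 knockdown, against 16.0, 10.4 and 6.65 CPM in PNPT1 knockdown, and its groups overlapped. In all, 4 of 100 antisense genes were higher without overlap (TTN-AS1, RAB30-AS1, TRG-AS1 and C1RL-AS1), against 4.62% of all genes, and 1 was lower (MFI2-AS1), against 3.94%, so neither share stood apart from the background. TTN-AS1 and MFI2-AS1 also did not overlap without TMM factors and in FPKM, whereas RAB30-AS1, TRG-AS1 and C1RL-AS1 overlapped on both of those scales. Without TMM factors 1 antisense gene was higher without overlap, against 3.2% of all genes, and 3 were lower, against 3.6%. In FPKM 1 was higher, against 3.22%, and 3 were lower, against 3.5%. The lower side then included SRP54-AS1 on both scales, TOPORS-AS1 without TMM factors and EPB41L4A-AS1 in FPKM.

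In CPM with TMM factors, the remaining antisense genes named for a small p did not separate the groups. VPS9D1-AS1 had 6.91, 18.5 and 8.23 CPM in SUPV3L1 knockdown, against 2.29, 8.38 and 3.07 CPM in PNPT1 knockdown, and TMCC1-AS1 had 10.4, 23.0 and 11.3 CPM in SUPV3L1 knockdown, against 4.48, 13.7 and 1.79 CPM in PNPT1 knockdown. In both genes replicate 2 was the highest library of each group. PNPT1 knockdown replicate 2 was the highest of its group for 63 of the 100 antisense genes, against 36.0% of all genes tested. TRHDE-AS1, inside the gene of an enzyme that degrades thyrotropin-releasing hormone, had 14.7, 24.1 and 17.8 CPM in SUPV3L1 knockdown, against 10.2, 16.2 and 5.89 CPM in PNPT1 knockdown. On the lower side, TOPORS-AS1, a gene with a protein-coding annotation beside a ubiquitin ligase gene, had 4.11, 1.70 and 5.41 CPM in SUPV3L1 knockdown, against 7.07, 5.41 and 8.70 CPM in PNPT1 knockdown. Without TMM factors its groups did not overlap (4.4, 1.8 and 5.33 CPM in SUPV3L1 knockdown, against 8.5, 5.92 and 5.81 CPM in PNPT1 knockdown). In FPKM the groups of TOPORS-AS1 overlapped. CARD8-AS1, beside an inflammasome sensor gene, had 15.6, 9.05 and 11.6 CPM in SUPV3L1 knockdown, against 16.3, 15.5 and 18.7 CPM in PNPT1 knockdown. Of the SUPV3L1 knockdown libraries, 1 lay within the PNPT1 knockdown range of CARD8-AS1. EPB41L4A-AS1, whose CPM values are given above, was lower in SUPV3L1 knockdown without overlap in FPKM only.

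Partner and antisense gene were next set side by side, since a duplex needs both. In the 80 pairs with both genes tested, both fold changes were above 0 in 29 and both below 0 in 16. The antisense gene was above 0 and the partner below in 28, and the reverse held in 7. Across pairs, which share the same 6 libraries, Pearson's r was 0.337 and Spearman's rho 0.281, given as a description. The antisense fold change exceeded the partner's in 55 pairs, with a median difference of 0.30 (log2). By layout, the median difference was 0.53 in 19 divergent pairs, 0.12 in 31 head-to-head pairs and 0.14 in 19 tail-to-tail pairs, and the layouts were not tested against each other. In counts with 0.5 added, the median difference of the pair ratio was 0.45 with all libraries and 0.01 without PNPT1 knockdown replicate 3.

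**Figure D3:**
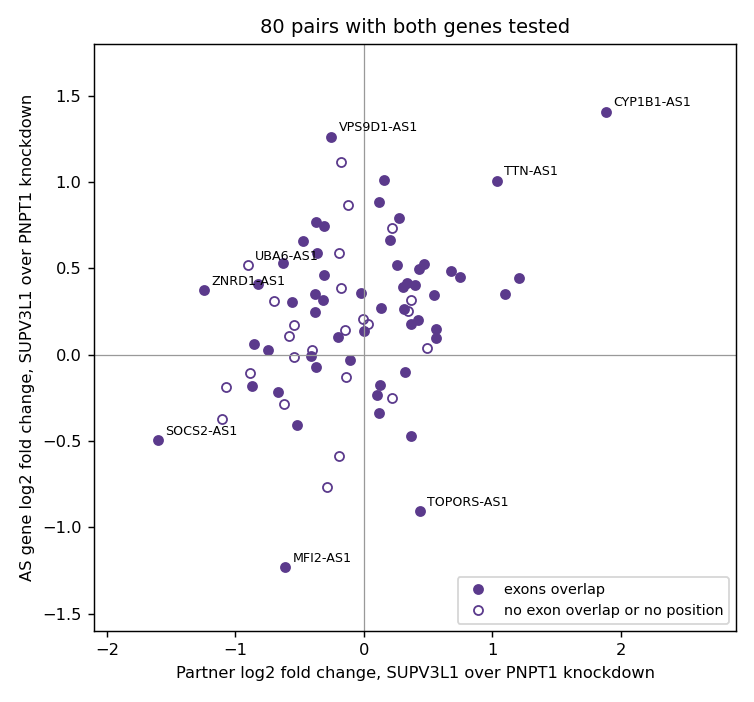
Log2 fold change of the AS-named gene against that of its partner, SUPV3L1 over PNPT1 knockdown, in the 80 pairs with both tested; filled points are pairs whose exons overlap. The upper left field (antisense above 0, partner below) holds 28 pairs and the lower right field holds 7; no gene shown passed the adjusted threshold.

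The pairs that differed most were ZNRD1-AS1, UBA6-AS1, VPS9D1-AS1 and TOPORS-AS1. ZNRD1-AS1 had 34.9, 34.7 and 35.1 CPM in SUPV3L1 knockdown, against 23.9, 49.5 and 6.40 CPM in PNPT1 knockdown. ZNRD1 had 11.2, 6.04 and 8.66 CPM in SUPV3L1 knockdown, against 12, 10.3 and 39.9 CPM in PNPT1 knockdown. The difference between the antisense and partner log2 fold changes was 1.62 with all libraries and 0.30 without PNPT1 knockdown replicate 3, where the antisense gene was lowest and the partner highest. Without that library the same difference was 1.418 for VPS9D1-AS1, 0.888 for UBA6-AS1 and -1.185 for TOPORS-AS1, so these did not rest on it alone. UBA6-AS1 had 13.9, 13.9 and 9.31 CPM in SUPV3L1 knockdown, against 10.6, 9.61 and 5.37 CPM in PNPT1 knockdown. UBA6, a ubiquitin-activating enzyme gene, had 62.5, 48.9 and 63.1 CPM in SUPV3L1 knockdown, against 116, 60.2 and 151 CPM in PNPT1 knockdown. In CPM, both genes of this divergent pair overlapped between the groups; in FPKM, UBA6 did not.

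TOPORS had 36.3, 38.7 and 32.7 CPM in SUPV3L1 knockdown, against 27.8, 25 and 26.9 CPM in PNPT1 knockdown, opposite to TOPORS-AS1 and without overlap. Without TMM factors and in FPKM the groups of TOPORS overlapped. The antisense share of that pair was 10.2%, 4.21% and 14.2% in SUPV3L1 knockdown, against 20.3%, 17.8% and 24.5% in PNPT1 knockdown. The ratio of the pair did not overlap between the groups in 1 of 80 pairs on the higher side (CTBP1-AS2) and in 3 on the lower side (CARD8-AS1, TOPORS-AS1 and SRP54-AS1), among pairs with a mean of at least 10 counts for both genes. Over all 191 AS-named pairs that met the same minimum, 4.19% did so in each direction, so these counts were near the background.

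A few pairs have partners known in blood cells or in cytokine signalling, and they were picked after their values were seen. SOCS2, a suppressor of cytokine signalling, had 19.0, 25.7 and 27.7 CPM in SUPV3L1 knockdown, against 55, 37.5 and 128 CPM in PNPT1 knockdown, without overlap on this scale, without TMM factors and in FPKM. Its log2 fold change was -1.6 (SE 0.45, adjusted p = 0.898, edgeR quasi-likelihood test). SOCS2-AS1 had 8.47, 11 and 7.90 CPM in SUPV3L1 knockdown, against 13.9, 17.2 and 7.17 CPM in PNPT1 knockdown, which overlapped. CEBPA, the myeloid transcription factor, had 48.1, 110 and 69.2 CPM in SUPV3L1 knockdown, against 77.9, 68.4 and 48.6 CPM in PNPT1 knockdown. CEBPA-AS1 ranged over 2.38 to 4.98 CPM in SUPV3L1 knockdown, against 2.89 to 6.64 CPM in PNPT1 knockdown. MEF2C, another transcription factor of myeloid cells, had 267, 215 and 175 CPM in SUPV3L1 knockdown, against 228, 201 and 97.5 CPM in PNPT1 knockdown. MEF2C-AS1 had 14.5, 15.8 and 18.9 CPM in SUPV3L1 knockdown, against 25.8, 20.9 and 5.37 CPM in PNPT1 knockdown. Neither CEBPA nor MEF2C separated the groups on either strand. CYP1B1, a gene of the CYP family of oxidising enzymes, and CYP1B1-AS1 had the largest positive fold changes on both strands; CYP1B1 had 35.2, 3.49 and 5.41 CPM in SUPV3L1 knockdown, against 6.77, 3.49 and 1.28 CPM in PNPT1 knockdown. CYP1B1-AS1 had 19.2, 3.58 and 6.71 CPM in SUPV3L1 knockdown, against 3.68, 6.64 and 0.256 CPM in PNPT1 knockdown. SUPV3L1 knockdown replicate 1 was the highest library on both strands of this pair.

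**Figure D4:**
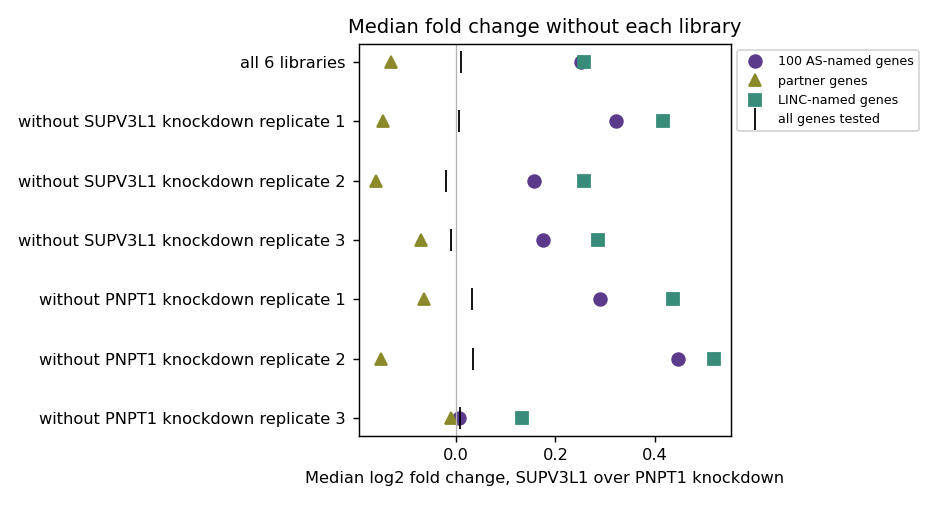
Median log2 fold change, SUPV3L1 over PNPT1 knockdown, of the AS-named genes, their partners, the most counted LINC-named genes and all genes tested, with all 6 libraries and without each in turn. The antisense median is 0.25 with all libraries, 0.0068 without PNPT1 knockdown replicate 3, and 0.45 when replicate 2 of that group is left out instead.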

How the data were processed

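Per the submitters' processing notes, HISAT2 2.2.1, SAMtools 1.14, StringTie 2.1.4 and HTSeq were used with GRCh38 (annotation release and strand setting not given in the sources used here). Per the labels' protocols, the library kit was directional. The authors deposited raw counts per gene for each library and 1 table of FPKM values. The 5 summary lines of each count file, which held 84.0% to 92.9% relative to assigned counts plus these lines, were left out. The main test was that of edgeR 4.0.16, run in R 4.3.3 (TMM, a filter with a minimum count of 10, quasi-likelihood test, Benjamini-Hochberg adjustment over 13275 genes). Alternatives were DESeq2 1.42.0, limma 3.58.1 on log2 FPKM with pseudocounts of 0.1 and 1, other filters and scaling, and each library left out. Share measures used exact permutation tests.

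Named genes are the 12 most counted, the 4 smallest p-values higher and 4 lower, the 4 pairs with the largest fold change difference, the 4 highest and 4 lowest antisense shares (pairs of at least 200 counts), the 4 longest exon overlaps, and the targeted genes (1 gene that the rule selects is not reported here); further genes are named as chosen after their values were seen. Members and lists were chosen with earlier results of these data known.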

Additional observations from a re-analysis of the deposited data

How the results depend on the processing

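No antisense gene was called under any alternative run. The shallowest library, PNPT1 knockdown replicate 3 with 5852090 assigned counts, had as few as 1 count for a member, which limits the precision of its ratios. The partner median of -0.13 was -0.0053 without the expression filter, 0.0627 and 0.0293 on FPKM with pseudocounts of 0.1 and 1 (direction turned), and -0.162 to -0.0111 with single libraries left out. Without the filter, 2 partners were called against 0 with it (SOCS2, log2 fold change -1.57, adjusted p = 0.0125; CYP1B1, 1.89, adjusted p = 0.0377, with 428 of its counts in SUPV3L1 knockdown replicate 1), beside 187 of 28015 genes (0.667%). The median of all genes was 0.11 without the filter and 0.17 on FPKM with a pseudocount of 0.1, and the antisense median relative to it was 0.15 and 0.28. The group difference in the median antisense share (4.24 percentage points) was -0.629 to 8.59 with single libraries left out, and that in the share of assigned counts (0.0107) was -0.0323 to 0.0499; both turned without PNPT1 knockdown replicate 3. With starts within 300 bases, 4 pairs were apart, against 1. The cause was not tested.

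Of 458 fold changes of 39 named genes under alternatives, 428 kept their direction and 30 turned. On FPKM with a pseudocount of 0.1, CCDC18-AS1 was 0.041, PSMA3 0.031, TMEM161B 0.042 and VPS9D1 0.14; with 1, PSMA3 was 0.027, TMEM161B 0.023 and VPS9D1 0.044. With single libraries left out, the ranges that crossed 0 were -0.36 to 0.31 for CCDC18-AS1, -0.40 to 0.72 for CD27-AS1, -0.15 to 0.63 for GABPB1-AS1, -0.46 to 0.22 for HNRNPU-AS1, -0.50 to 0.12 for LRRC75A-AS1, -0.14 to 0.47 for NUTM2B-AS1, -0.22 to 0.42 for OIP5, -0.36 to 0.073 for PSMA3, -0.15 to 0.40 for PSMA3-AS1, -0.38 to 0.22 for SBF2-AS1, -0.13 to 0.043 for TMEM161B, -0.31 to 0.38 for TPT1-AS1, -0.13 to 1.98 for TTN, -0.42 to 0.046 for VPS9D1 and -0.078 to 1.16 for ZNRD1-AS1. No paired analysis was possible because the replicate numbers only name the libraries in order.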
